A study of Mus musculus with 6 samples.

Results

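The 8 genes described here, *Tyms*, *Shmt1*, *Mthfd1*, *Mtr*, *Shmt2*, *Mthfd2*, *Mthfd1l* and *Aldh1l2*, encode enzymes of the folate cycle. They were chosen by name, as the rows of the deposited count table that name 1 of these genes, out of 53060 genes or merged loci in all. Each of the 8 was the only gene named for its locus, and all 8 were among the 19073 genes with enough counts to be tested. RNA was from neural progenitor cells (NPCs), cultured as neurospheres from the ganglionic eminences of e13.5 mouse brains. The medium held epidermal growth factor (20 ng/ml), and cells of the second passage were taken. There were 3 libraries from *Armc5* KO cells and 3 from WT cells, numbered 1 to 3 in each genotype, and the comparison asks how loss of ARMC5 altered the transcriptome. The labels give the strain of both genotypes as 129 sv X CD1, while the study's methods describe CD1 x C57BL/6 F1 animals. The study calls the libraries biological replicates, but the number of embryos behind a library was not given in the sources used here. Where the libraries of a genotype are not from separate animals, the p-values measure only a technical spread.

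Folate carries carbon units at several oxidation states between amino acid, nucleotide and methyl group metabolism. The serine hydroxymethyltransferases SHMT1 in the cytosol and SHMT2 in the mitochondrion move a carbon from serine onto tetrahydrofolate. The MTHFD enzymes interconvert the resulting folates, and mitochondria export the carbon as formate, which MTHFD1 puts back onto folate in the cytosol. From there it is used to make purines, thymidylate (by TYMS) and methionine (by MTR). Proliferating neural progenitors draw on these products for DNA synthesis, and folate supply is known to matter for closure of the neural tube.

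By edgeR's quasi-likelihood test, no difference between KO and WT NPCs was called for any of the 8 genes (adjusted p = 0.983 for each), and the KO and WT values overlapped for each of them. All 8 log2 fold changes were below 0, from -0.51 for *Shmt2* to -0.11 for *Aldh1l2*, but 1 library lay apart from the rest. In KO NPC 3, 7 of the 8 genes were at their lowest level of the 6 libraries, with *Shmt1* 15.6-fold, *Mthfd1l* 5.66-fold, *Mthfd2* 5.00-fold, *Tyms* 4.17-fold and *Shmt2* 2.12-fold below the lowest of the other 5. *Aldh1l2* was the exception. Without KO NPC 3 the log2 fold changes lay between -0.21 and 0.16, with 4 above and 4 below 0.

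Promoter sequences are shown for the 4 genes that were lowest in KO NPC 3 relative to the other libraries, a choice that rests on that library. Whether the 4 genes share regulation was not tested. They are bases 200 to 11 before the RefSeq start on GRCm38.p6, 5′ to 3′ on the strand of the gene. Capitals mark matches on either strand to the CCAAT box (CCAAT) and the GC box (GGGCGG).
Shmt1: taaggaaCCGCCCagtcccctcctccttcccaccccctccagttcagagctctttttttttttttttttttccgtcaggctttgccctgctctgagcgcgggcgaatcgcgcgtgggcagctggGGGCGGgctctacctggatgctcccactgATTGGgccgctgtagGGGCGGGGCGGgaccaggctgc
Mthfd1l: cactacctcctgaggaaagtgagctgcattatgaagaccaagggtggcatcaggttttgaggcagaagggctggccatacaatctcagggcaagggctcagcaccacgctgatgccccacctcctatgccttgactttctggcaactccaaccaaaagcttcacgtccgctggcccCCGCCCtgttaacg
Mthfd2: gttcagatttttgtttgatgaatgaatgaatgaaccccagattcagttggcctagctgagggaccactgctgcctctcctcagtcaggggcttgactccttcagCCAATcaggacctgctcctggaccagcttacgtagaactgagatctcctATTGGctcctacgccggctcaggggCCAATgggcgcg
Tyms: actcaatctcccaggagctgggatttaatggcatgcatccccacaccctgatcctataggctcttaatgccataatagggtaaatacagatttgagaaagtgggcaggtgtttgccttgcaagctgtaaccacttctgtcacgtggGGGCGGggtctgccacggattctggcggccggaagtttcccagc
The windows are chr11:60811276-60811465 for *Shmt1*, chr10:3972875-3973064 for *Mthfd1l*, chr6:83317615-83317804 for *Mthfd2* and chr5:30073636-30073825 for *Tyms*. Those of *Shmt1*, *Mthfd2* and *Tyms* are on the minus strand and that of *Mthfd1l* is on the plus strand. The RefSeq starts of *Shmt1* and *Mthfd2* lie inside their assembled loci and GENCODE genes, which begin farther upstream. The windows of *Shmt1* and *Mthfd2* thus lie within the annotated genes. *Shmt1* held 4 GC boxes, of which the pair nearest the start overlap each other, and 1 CCAAT box. *Mthfd2* held 3 CCAAT boxes and no GC box. *Tyms* and *Mthfd1l* each held 1 GC box and no CCAAT box. The RefSeq table had an entry for 7 of the 8 genes, all but *Aldh1l2*. Of all 32851 promoters in it, 28.5% held a CCAAT box and 29.5% a GC box in the same window. Among the other entries, *Mthfd1* held 1 CCAAT box and 1 GC box, *Mtr* held 2 CCAAT boxes and 1 GC box, and *Shmt2* held neither. The words TTTCCCGC, TTTCGCGC, TTTGCCGC and TTTGGCGC, taken here as the E2F motif and searched on both strands, were found in none of the 7 windows and in 1.47% of all promoters. The word TGATGCAA, taken as the element bound by ATF4 and searched in the same way, was also found in none of them and in 0.618% of all promoters. These matches describe letters in a window of 190 bases and do not show binding.

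Levels in the WT NPCs are compared between genes as CPM (counts per megaread of a library size corrected by TMM) per kb of the deposited locus length. *Shmt2* had the highest level, at 44.0 ± 4.14 CPM per kb (SD, n = 3), followed by *Mthfd1* at 27.1 ± 3.07 and *Shmt1* at 12.4 ± 1.58. *Mthfd1l* was at 10.2 ± 1.09, *Mthfd2* at 8.55 ± 0.623 and *Mtr* at 7.99 ± 0.510 on the same scale. *Tyms* was at 5.47 ± 0.601 and *Aldh1l2*, the lowest, at 3.14 ± 0.546. Neighbors in this order did not overlap among the WT libraries, except *Mthfd1l* with *Mthfd2* and *Mthfd2* with *Mtr*. The locus length merges all assembled exons. With the length of the principal GENCODE mRNA in its place, *Tyms* moved up to the fourth place, at 14.7 ± 1.62 CPM per kb beside 14.3 ± 1.04 for *Mthfd2* and 12.3 ± 1.31 for *Mthfd1l*, while *Shmt2* (60.3 ± 5.67), *Mthfd1* (39.6 ± 4.49) and *Shmt1* (19.2 ± 2.45) stayed the highest.

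**Figure D1:**
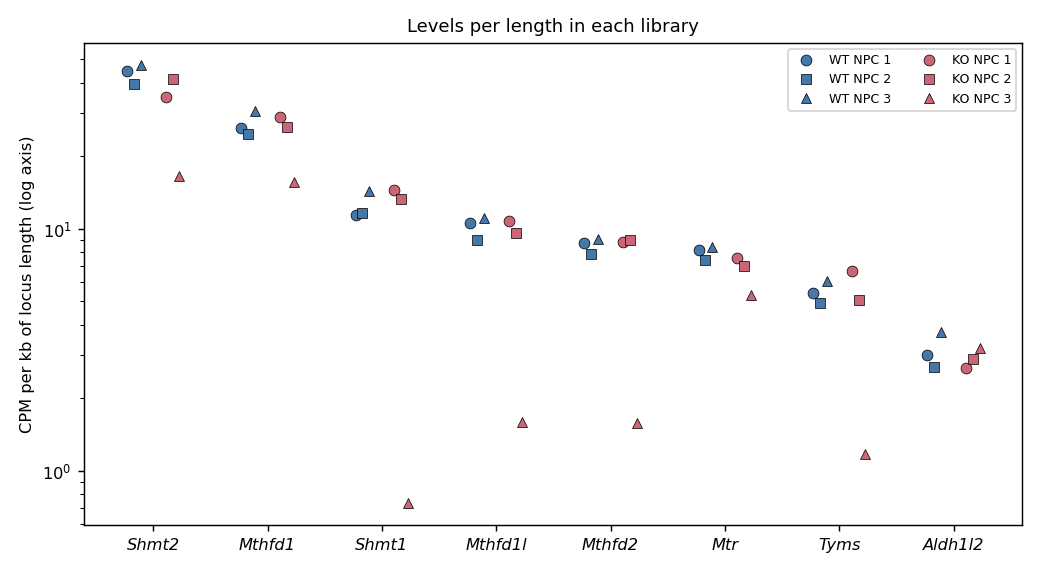
Level of each of the 8 genes in CPM per kb of locus length (y axis, log scale), ordered by the WT mean, with blue symbols for WT and red for KO libraries and circles, squares and triangles for numbers 1, 2 and 3. The red triangles, KO NPC 3, fall below the other libraries for every gene except *Aldh1l2*, and *Shmt1* drops in that library from the third highest gene to the lowest, at 0.734 CPM per kb.

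Depth, counted at named loci, was lowest in KO NPC 3 (52995791 counts) and highest in KO NPC 1 (85170379 counts). The 8 genes had between 191 counts (*Shmt1* in KO NPC 3) and 11389 counts (*Mthfd1* in KO NPC 1) in a library. *Armc5* checked the labels, at 84, 119 and 43 counts in KO NPC 1, 2 and 3 and 1966, 2114 and 1797 counts in WT NPC 1, 2 and 3. KO NPC 3 stood apart from the other libraries over the whole transcriptome. In it, 8.77% of the tested genes were more than 2-fold below the lowest of the other 5 libraries (1673 genes) and 10.8% more than 2-fold above the highest (2065 genes), against 122 to 447 and 15 to 146 genes for each other library. Of the 8 folate cycle genes, 5 were among the 1673 and 0 among the 2065, and in no other library was any of the 8 that far out. Results are therefore given with and without KO NPC 3. RNA was from whole cultures, where fewer cells of a type and less RNA per cell cannot be told apart.

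Of the enzymes that work mainly in the cytosol, *Tyms* encodes thymidylate synthase, which methylates deoxyuridylate to thymidylate and turns the folate into dihydrofolate. *Tyms* lies on chromosome 5 of GRCm38, minus strand, from 30058202 to 30073617. It was at 56.8, 43.3 and 10.02 CPM in KO NPC 1, 2 and 3 and at 46.1, 41.8 and 52.0 CPM in WT NPC 1, 2 and 3. KO NPC 1 was above and KO NPC 3 below all WT libraries. The means were 36.7 ± 24.1 CPM (SD, n = 3) in the KO and 46.6 ± 5.12 CPM (SD, n = 3) in the WT cells. On the log2 scale *Tyms* differed, KO minus WT, by -0.34 (standard error 0.57, 95% interval -1.73 to 1.04), and 0.10 (-0.32 to 0.52) without KO NPC 3.

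*Shmt1* encodes the cytosolic serine hydroxymethyltransferase and had the widest spread of the 8 genes. It was at 63.7, 58.3 and 3.24 CPM in KO NPC 1, 2 and 3 and at 50.4, 51.1 and 62.8 CPM in WT NPC 1, 2 and 3. KO NPC 1 lay above all WT libraries, KO NPC 2 lay inside their range, and KO NPC 3 was far under every other library. The KO mean was 41.7 ± 33.5 CPM (SD, n = 3) and the WT mean 54.8 ± 6.99 CPM (SD, n = 3). For *Shmt1* the log2 fold change was -0.39 (standard error 0.90, 95% interval -2.57 to 1.78), and 0.16 (-0.18 to 0.50) without KO NPC 3. The assembled locus of *Shmt1* runs on chromosome 11, minus strand, from 60571952 to 60811718, while the GENCODE gene spans only 60788104 to 60811718. The longer locus also covers *Flii* and *Top3a* on the same strand and *Llgl1*, *Mief2* and *Smcr8* on the other. Its merged exons come to 4409 bases, beside 2858 bases for the principal GENCODE mRNA of *Shmt1*. How reads were assigned there was not given in the sources used here, so the level of *Shmt1* is less certain than that of a gene whose locus has the GENCODE bounds.

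*Mthfd1* encodes the trifunctional cytosolic enzyme that takes up formate and interconverts formyl, methenyl and methylene folates. It lies on chromosome 12, plus strand, from 76255298 to 76319803, where the predicted genes *Gm47525*, *Gm47526* and *Gm34868* overlap it on the other strand. *Mthfd1* was at 137, 124 and 73.6 CPM in KO NPC 1, 2 and 3 and at 123, 117 and 145 CPM in WT NPC 1, 2 and 3. KO NPC 1 and 2 were within the WT range and KO NPC 3 was 1.59-fold below the lowest other library. The means were 112 ± 33.7 CPM (SD, n = 3) in the KO and 128 ± 14.6 CPM (SD, n = 3) in the WT cells. The log2 difference was -0.20 (standard error 0.26, 95% interval -0.83 to 0.43), and 0.029 (-0.29 to 0.34) without KO NPC 3.

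*Mtr* encodes methionine synthase, which passes the methyl group of methyl folate to homocysteine with the help of a cobalamin cofactor. It lies on chromosome 13, minus strand, from 12182712 to 12258113. *Mtr* was at 64.3, 59.6 and 45.4 CPM in KO NPC 1, 2 and 3 and at 69.2, 63.3 and 71.7 CPM in WT NPC 1, 2 and 3. KO NPC 2 and 3 lay below all WT libraries, and KO NPC 1 lay inside the WT range. The means were 56.5 ± 9.82 CPM (SD, n = 3) and 68.1 ± 4.35 CPM (SD, n = 3). Within each number the KO library was the lower one, with log2 differences in CPM of -0.11, -0.09 and -0.66. For *Mtr* the log2 fold change was -0.27 (standard error 0.18, 95% interval -0.70 to 0.16), and -0.14 (-0.40 to 0.13) without KO NPC 3.

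Of the mitochondrial enzymes, *Shmt2* encodes the serine hydroxymethyltransferase that feeds carbon into the mitochondrial branch. It was at 109, 130 and 51.5 CPM in KO NPC 1, 2 and 3 and at 141, 124 and 149 CPM in WT NPC 1, 2 and 3. KO NPC 1 and 3 lay below all WT libraries and KO NPC 2 lay inside their range. The means were 97.1 ± 40.8 CPM (SD, n = 3) and 138 ± 13.0 CPM (SD, n = 3). The log2 fold change of *Shmt2* was the lowest of the 8, at -0.51 (standard error 0.34, 95% interval -1.33 to 0.32), and -0.21 (-0.53 to 0.12) without KO NPC 3. The assembled locus lies on chromosome 10, minus strand, from 127412765 to 127522444. The GENCODE gene of *Shmt2* spans only 127517123 to 127522444, and the locus also covers *R3hdm2*, *Stac3* and *Ndufa4l2* on the other strand. The merged exons of the locus come to 3137 bases, beside 2289 bases for the principal GENCODE mRNA of *Shmt2*. Whether strand was used in counting was not given either, so the level of *Shmt2*, and its first place among the 8, carry the same doubt as the level of *Shmt1*.

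*Mthfd2* encodes the mitochondrial dehydrogenase and cyclohydrolase of proliferating and embryonic cells. It lies on chromosome 6, minus strand, from 83305691 to 83325908, where *Gm43890* overlaps it on the same strand. It was at 30.7, 31.3 and 5.48 CPM in KO NPC 1, 2 and 3 and at 30.5, 27.4 and 31.6 CPM in WT NPC 1, 2 and 3. The 5 libraries other than KO NPC 3 lay between 27.4 and 31.6 CPM, with no separation of the genotypes. The means were 22.5 ± 14.7 CPM (SD, n = 3) and 29.8 ± 2.17 CPM (SD, n = 3). The log2 fold change of *Mthfd2* was -0.41 (standard error 0.60, 95% interval -1.86 to 1.04), and 0.056 (-0.23 to 0.34) without KO NPC 3.

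*Mthfd1l* encodes the mitochondrial enzyme that releases formate. It lies on chromosome 10, plus strand, from 3973118 to 4167081, where *Gm16074* and *Gm25515* overlap it on the same strand. It was at 47.5, 42.7 and 7.03 CPM in KO NPC 1, 2 and 3 and at 46.9, 39.8 and 49.0 CPM in WT NPC 1, 2 and 3. KO NPC 1 and 2 were inside the WT range, and KO NPC 3 was 5.66-fold below the lowest of them. The means were 32.4 ± 22.1 CPM (SD, n = 3) and 45.3 ± 4.82 CPM (SD, n = 3). For *Mthfd1l* the log2 fold change was -0.48 (standard error 0.64, 95% interval -2.02 to 1.06), and -0.0053 (-0.34 to 0.33) without KO NPC 3.

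*Aldh1l2* encodes the mitochondrial enzyme that oxidizes formyl folate to carbon dioxide with production of NADPH. It was at 23.1, 25.2 and 27.9 CPM in KO NPC 1, 2 and 3 and at 26.2, 23.3 and 32.6 CPM in WT NPC 1, 2 and 3. Here KO NPC 3 was the highest KO library and lay inside the WT range. The means were 25.4 ± 2.42 CPM (SD, n = 3) and 27.3 ± 4.75 CPM (SD, n = 3). The change of *Aldh1l2* on the log2 scale was -0.11 (standard error 0.19, 95% interval -0.57 to 0.35), -0.18 (-0.62 to 0.25) without KO NPC 3 and 0.032 without WT NPC 3. The gene lies on chromosome 10, minus strand, from 83487450 to 83534140, and *D10Wsu102e* on the other strand overlaps it.

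**Figure D2:**
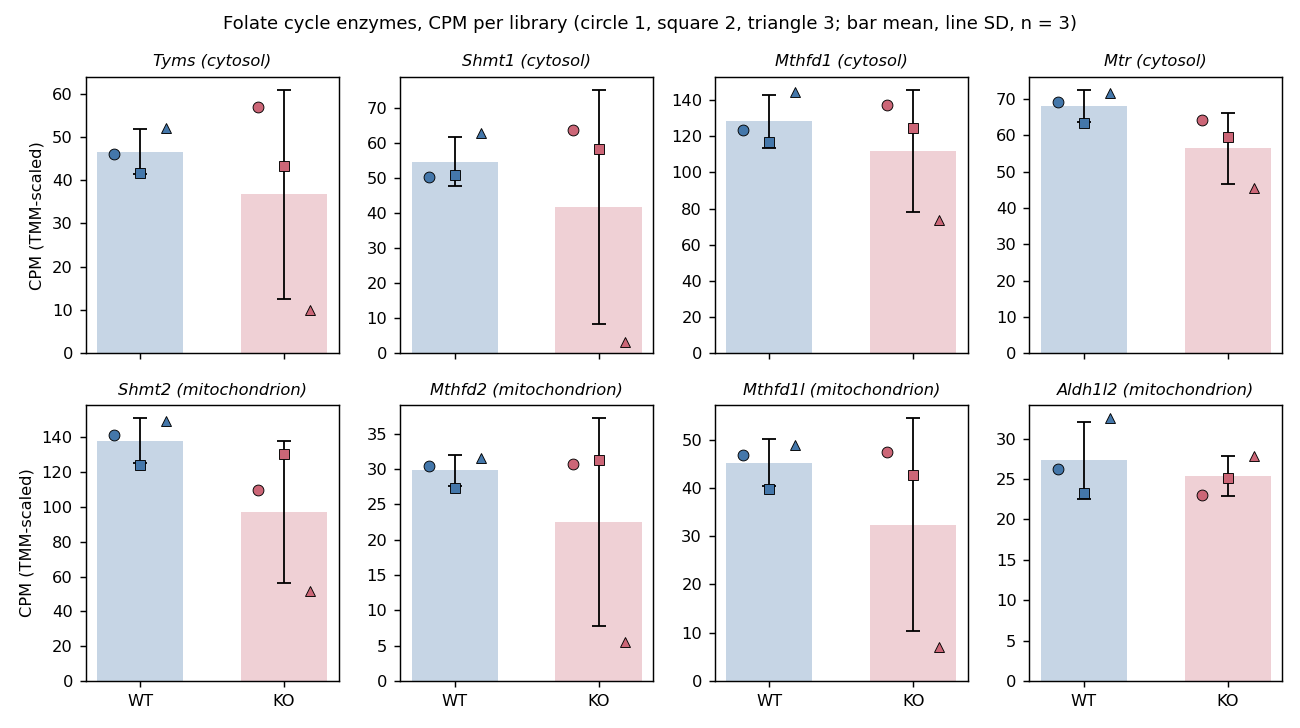
CPM of each gene (y axis, from 0) in the WT (blue) and KO (red) NPCs, with 1 symbol per library (circle 1, square 2, triangle 3), a bar at the mean and a line for the SD (n = 3), and the cytosolic enzymes in the upper and the mitochondrial ones in the lower row. The KO triangle, KO NPC 3, lies under all other symbols in each panel but that of *Aldh1l2*.

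Beside the folate cycle genes, edgeR's quasi-likelihood test called 0% of the 19073 genes at an adjusted p under 0.05, and 1.61% had an unadjusted p under 0.05 (308 genes, 181 higher and 127 lower in the KO NPCs). None of the 8 genes was among these 308. The deleted gene *Armc5* itself was not called by this test, at a log2 fold change of -4.68 and an adjusted p of 0.0864, while the likelihood ratio test (adjusted p = 1.01e-20) and DESeq2 (adjusted p = 2.01e-37) called it. The likelihood ratio test called 0.0891% of the genes (17), DESeq2 0.189% (35 of the 18470 to which it gave an adjusted p), and the likelihood ratio test blocked by replicate number 0.199% (38), and each of these tests called 0 of the 8. The coefficient of variation of the 8 genes was between 6.39% and 17.4% among the WT libraries. Among the KO libraries it was between 9.54% for *Aldh1l2* and 80.2% for *Shmt1*. The median log2 fold change of the 8 genes was -0.37, beside -0.013 for all tested genes. It was 0.012 without KO NPC 3 and 0.071 without both libraries numbered 3, while leaving out any other single library kept it between -0.65 and -0.27. A p-value that misses the threshold does not show that levels were equal. The intervals without KO NPC 3, from 2 KO and 3 WT libraries, lay between -0.40 and 0.52 for *Tyms*, *Shmt1*, *Mthfd1*, *Mtr*, *Mthfd2* and *Mthfd1l*, and reached down to -0.53 for *Shmt2* and -0.62 for *Aldh1l2*.

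**Figure D3:**
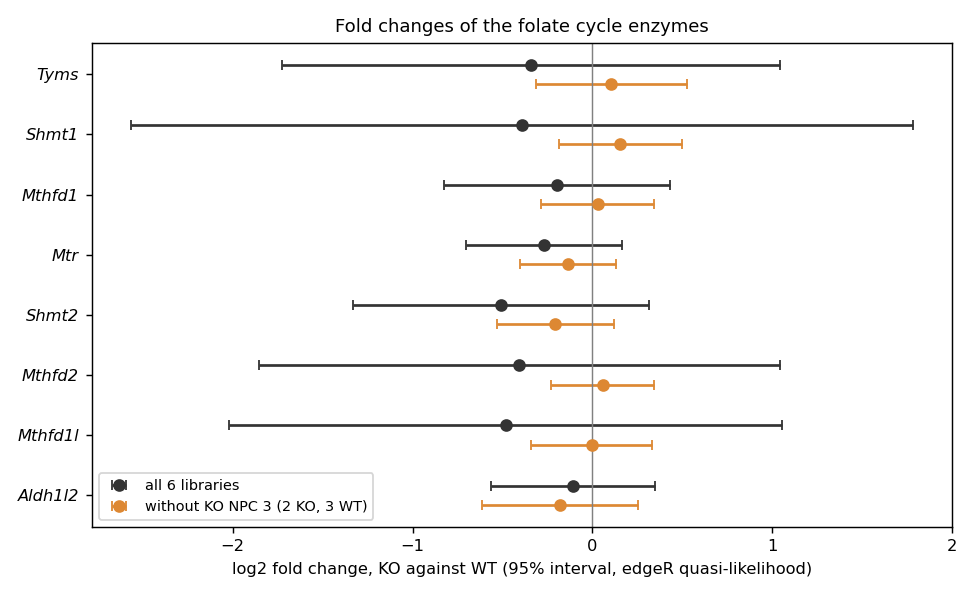
Log2 fold change, KO against WT (x axis), of each gene with its 95% interval from edgeR's quasi-likelihood test, in black with all 6 libraries and in orange without KO NPC 3. Each interval includes 0, and that of *Shmt1* narrows from -2.57 to 1.78 with all libraries to -0.18 to 0.50 without KO NPC 3.

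KO NPC 3 was not lower by 1 common factor for the 8 genes. Its log2 CPM minus the median of the other 5 libraries was -4.16 for *Shmt1*, -2.73 for *Mthfd1l*, -2.48 for *Mthfd2*, -2.20 for *Tyms*, -1.34 for *Shmt2*, -0.76 for *Mthfd1*, -0.50 for *Mtr* and 0.15 for *Aldh1l2*. Both compartments held genes far below and genes near the other libraries. The log2 ratio of *Shmt2* to *Shmt1* counts, mitochondrial to cytosolic, was 3.99 in KO NPC 3, 0.78 in KO NPC 1, 1.16 in KO NPC 2 and between 1.25 and 1.48 in the WT libraries. The KO minus WT difference of this log2 ratio was 0.64 with all libraries and -0.37 without KO NPC 3, so its direction depended on that library. The log2 ratio of *Mthfd2* to *Mthfd1* counts was -3.75 in KO NPC 3 and between -2.20 and -1.99 elsewhere. That of *Mthfd1l* to *Mthfd1* was -3.39 in KO NPC 3 and between -1.56 and -1.39 elsewhere.

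Across the 6 libraries, with KO NPC 3 as an extreme point, the log2 CPM of the 7 genes other than *Aldh1l2* correlated with each other at Pearson r between 0.913 and 0.998 (21 pairs), and *Aldh1l2* with them between -0.22 and 0.064. Without KO NPC 3, over 5 libraries, the 21 values spread from -0.24 to 0.872, and those of *Aldh1l2* with the 7 genes from 0.223 to 0.859, so the distance of *Aldh1l2* from the others rested on KO NPC 3. The genes with the pattern most like that of *Shmt1*, among 14348 with a mean CPM of at least 1, were *Rrm2*, a subunit of ribonucleotide reductase (r = 0.9998, and 0.980 without KO NPC 3), and *Cdc6*, which loads the replicative helicase onto origins (0.9996 and 0.950). Most like *Mthfd1l* were the merged locus that holds *Pole2* (0.9999), a subunit of a replicative DNA polymerase, and *Kpna2* (0.9998), a nuclear import receptor. Most like *Mthfd2* were *Mgat4b*, a glycosyltransferase (0.9997), and *Rad18*, a ubiquitin ligase of DNA damage tolerance (0.9995). Most like *Tyms* were the merged locus of *Atp5e* and *Prelid3b* (0.9996) and the splicing factor gene *Ppih* (0.9993). *Mthfd1* was followed most closely by *Ccar1* (0.9989) and *3110082I17Rik* (0.9986), *Shmt2* by *Txndc17* (0.9995) and *Dgkk* (0.9986), and *Mtr* by *Chchd10* (0.9952) and *Snrnp48* (0.9950). For *Aldh1l2* the closest were *Gabra2* (0.976) and the merged locus of *Slc16a6* (0.969). Over the 5 libraries without KO NPC 3, r fell to 0.899 for *Rad18* and was between 0.974 and 0.994 for the other genes named with these 7. All these genes were picked as the highest of 14348 over 6 libraries that include the 5. High values over the 5 follow in part from that choice and are no separate check. Whether the likeness reflects a shared function was not tested.

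The remaining folate enzymes were more mixed. Of 17 on a list outside the 8 genes, 15 were tested and 0 passed the adjusted threshold by the quasi-likelihood test, the likelihood ratio test or DESeq2, with 0 at an unadjusted p under 0.05. Without KO NPC 3, 1 of them, *Amt* of the glycine cleavage system, had an unadjusted p under 0.05 (adjusted p = 1.00 by the quasi-likelihood test, log2 fold change -0.40). With all libraries, the log2 fold change was above 0 for 4 and below 0 for 11 of the 15. Its median was -0.19 with all libraries and 0.039 without KO NPC 3. *Gldc*, the decarboxylase of the glycine cleavage system, was at 66.6 CPM in KO NPC 3, beside 148 to 188 CPM elsewhere. *Atic*, of the last steps of purine synthesis, was at 34.6 CPM there and between 76.4 and 90.4 CPM elsewhere. Both were more than 2-fold below the lowest other library. Of the 15 genes 8 were lowest and 5 highest in KO NPC 3.

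Some relatives of the 8 genes were not low in KO NPC 3. *Mthfd2l*, the mitochondrial paralog of *Mthfd2*, was at 36.4 CPM in KO NPC 3, beside 28.2 to 36.3 CPM elsewhere. The merged locus of *Aldh1l1*, the cytosolic counterpart of *Aldh1l2* and an astrocyte marker, was at 134 CPM in KO NPC 3, inside the range of 106 to 224 CPM of the other libraries. *Mtrr*, which reactivates MTR, was lower, and was at 9.44 CPM in KO NPC 3, beside 18.0 to 20.0 CPM elsewhere. Of 8 folate carrier and polyglutamate genes 7 were tested, 0 had an unadjusted p under 0.05, and the median log2 fold change was 0.047 (0.10 without KO NPC 3). The reduced folate carrier gene *Slc19a1* was at 16.8 CPM in KO NPC 3, beside 23.7 to 27.1 CPM elsewhere, and *Slc25a32*, which carries folate into mitochondria, was at 11.9 CPM against 14.5 to 18.8 CPM. *Ggh*, which removes the glutamate tail of folates, was at 21.1 CPM against 21.7 to 27.3 CPM. Of the 7 genes 4 were lowest and 2 highest in KO NPC 3. The pair that were highest are named here after their values were seen. The folate receptor gene *Folr1* was at 3.02 CPM against 0.0977 to 1.08 CPM. *Folh1*, a folate hydrolase, was at 1.34 CPM against 0.195 to 0.511 CPM. *Folh1* had only 21, 16 and 79 counts in KO NPC 1, 2 and 3. The log2 fold changes of *Folr1* and *Folh1* were 1.09 and 0.59 with all libraries, and -1.59 and -0.75 without KO NPC 3. The study called *Folh1* too low for RNA-seq in NPCs and found less of it in KO NPCs by RT-qPCR. It also reported less *Folh1* RNA in KO adrenal glands and less FOLH1 protein in KO intestine, tissues that were not measured here.

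Pathways that use folate carbon differed in how low they were in KO NPC 3. All 8 genes of de novo purine synthesis, *Atic* among them, were lowest in KO NPC 3, 4 of them more than 2-fold below the lowest other library. Their summed level was 299 CPM there and between 637 and 761 CPM elsewhere. *Pfas*, an enzyme of the pathway in a merged locus, was at 66.9 CPM against 130 to 146 CPM, and *Prps2*, which makes phosphoribosyl pyrophosphate, at 23.7 CPM against 93.6 to 133 CPM. Of 10 genes of thymidylate and deoxynucleotide supply 8 were lowest in KO NPC 3, 6 of them more than 2-fold so, and 2 highest, with a summed level of 188 CPM against 798 to 953 CPM. *Rrm1*, the large subunit of ribonucleotide reductase, was at 50.7 CPM against 291 to 343 CPM, and *Rrm2* at 13.0 CPM against 205 to 270 CPM. *Dtymk*, the thymidylate kinase, was at 43.2 CPM against 85.7 to 94.4 CPM. In the methionine cycle, *Ahcy*, which hydrolyses S-adenosylhomocysteine, was at 17.1 CPM against 48.4 to 90.1 CPM, while *Mat2a*, which makes S-adenosylmethionine, was at 252 CPM inside a range of 103 to 319 CPM. Of that list, 10 of 13 genes were tested and 2 were more than 2-fold below the lowest other library. The 3 serine synthesis genes went different ways in KO NPC 3. *Phgdh*, the first enzyme, was highest there at 289 CPM against 178 to 208 CPM, *Psat1* was lowest at 209 CPM against 239 to 445 CPM, and *Psph* was at 29.2 CPM against 22.2 to 28.4 CPM. With all 6 libraries, in these 4 lists 0 genes passed the adjusted threshold by the quasi-likelihood test, the likelihood ratio test or DESeq2, and 0 had an unadjusted p under 0.05. Their median log2 fold changes were -0.27 for purine, -0.28 for thymidylate and deoxynucleotide, -0.17 for methionine cycle and 0.037 for serine synthesis genes, and 0.016, 0.10, -0.031 and -0.044 without KO NPC 3. Without KO NPC 3, 1 gene of the 4 lists had an unadjusted p under 0.05, the mitochondrial thymidine kinase gene *Tk2*, named after its values were seen. *Tk2* was at 6.33, 6.34 and 16.4 CPM in KO NPC 1, 2 and 3 and at 12.03, 14.1 and 12.8 CPM in WT NPC 1, 2 and 3, so KO NPC 1 and 2 lay below and KO NPC 3 above all WT libraries. Its log2 fold change was -0.42 with all libraries and -1.03 without KO NPC 3, where it was called by DESeq2 (adjusted p = 4.39e-09) but not by the likelihood ratio test (adjusted p = 0.0751) or the quasi-likelihood test (adjusted p = 0.550).

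Genes of S phase and of other cell types stood apart in the same library. All 24 genes on an S phase list, which shares *Rrm1* and *Rrm2* with the deoxynucleotide list, were more than 2-fold below the lowest other library in KO NPC 3. Their summed level was 323 CPM there and between 2199 and 2746 CPM elsewhere. *Uhrf1*, which maintains DNA methylation at replication, was at 8.76 CPM against 204 to 272 CPM. The 20 other targets of ATF4, the transcription factor of amino acid stress that also drives several folate genes, include *Psat1* and *Phgdh*. Of them 11 were lowest and 4 highest in KO NPC 3, with a summed level of 1199 CPM there and 1171 to 1350 CPM elsewhere. *Slc7a5*, an amino acid transporter on that list, was at 213 CPM in KO NPC 3 against 159 to 184 CPM.

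The label of the cells was checked on marker lists. The summed neural progenitor level was 4040 CPM in KO NPC 3, beside 5388 to 6047 CPM elsewhere (16 of 16 genes tested), with *Egfr* at 448 against 1076 to 1395 CPM, *Vim* at 327 against 718 to 965 CPM and *Fabp7* at 311 against 716 to 973 CPM. The list was split, with 6 genes lowest and 6 highest in KO NPC 3, and the median gene was 0.41 above the other libraries on the log2 scale although the sum was lower. The astrocyte sum was 2719 CPM in KO NPC 3 against 840 to 1357 CPM (7 of 8 genes tested). *Aqp4*, the water channel of astrocytes, was at 1040 against 55.7 to 171 CPM, *Gja1* at 699 against 107 to 228 CPM and *Slc1a2* at 271 CPM inside a range of 219 to 520 CPM. The oligodendrocyte lineage sum was 4252 CPM against 2625 to 3764 CPM (10 of 11 genes tested). Of these, 6 were highest and 3 lowest in KO NPC 3, with *Olig1* lowest at 655 against 1175 to 1351 CPM and *Olig2* lowest at 607 against 940 to 1096 CPM. The neuron sum was 1556 CPM in KO NPC 3 against 863 to 1518 CPM (11 of 11 genes tested). Of the neuron genes, 6 were highest and 0 lowest in KO NPC 3. The median neuron gene was 1.32 above the other libraries on the log2 scale. The levels of microglia and blood markers were near 0. The microglia sum was between 0.544 and 1.38 CPM in all libraries and the erythroid sum at most 0.233 CPM. The endothelial sum was 15.6 CPM in KO NPC 3 against 3.43 to 4.93 CPM, and the fibroblast sum 60.3 CPM against 1.82 to 9.04 CPM, of which the mural cell gene *Pdgfrb* made 58.4 CPM. The part of these genes in the low folate enzyme levels of KO NPC 3 was not tested.

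**Figure D4:**
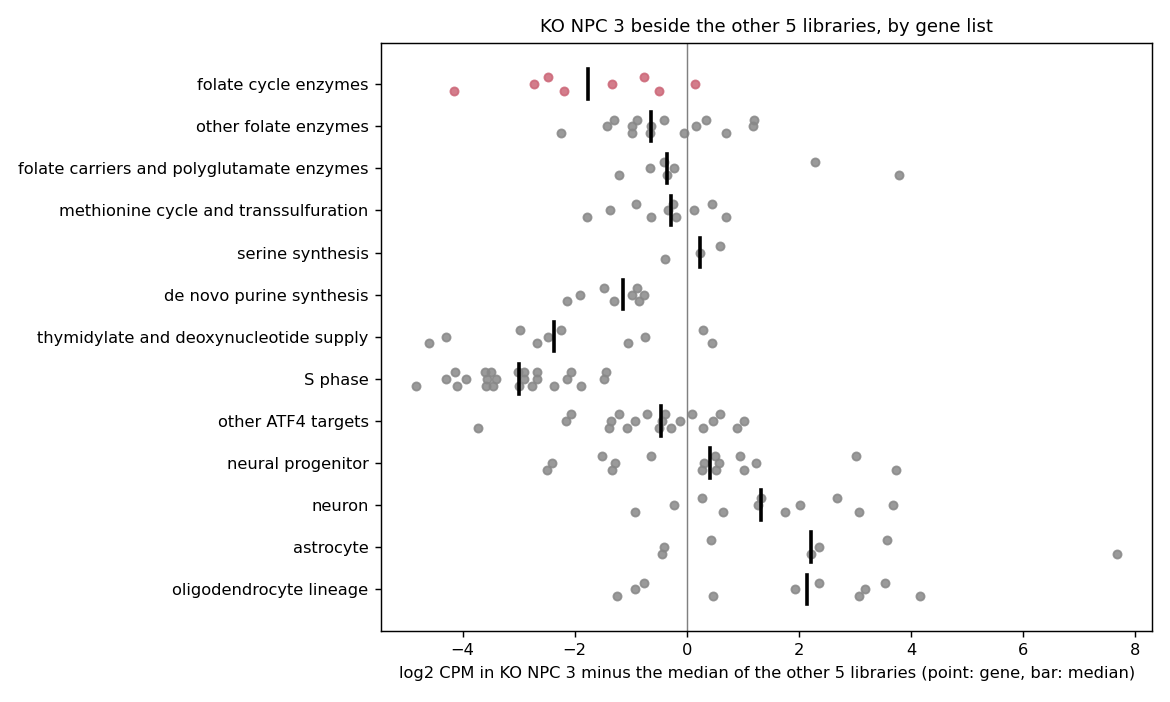
Log2 CPM of each tested gene in KO NPC 3 minus its median over the other 5 libraries (x axis), by gene list (y axis), with a black bar at the median of the list and the 8 folate cycle genes in red. The median was -1.77 for the folate cycle genes, -0.64 for the other folate enzymes, -1.14 for purine synthesis, -2.37 for thymidylate and deoxynucleotide supply, -3.003 for S phase and 2.21 for astrocyte genes.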

How the data were processed

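Neural progenitor RNA of 3 *Armc5* KO and 3 WT cultures was sequenced as paired ends after rRNA depletion and strand-specific library preparation. Per the labels, the authors used STAR, StringTie, Trimmomatic, Picard and edgeR and the GRCm38 genome (versions not given in the sources used here) and deposited whole-number counts per assembled locus, neither scaled nor filtered. The sources used here do not say how reads were assigned to loci or whether strand was used. The log2 values that the authors deposited beside the counts (log2 CPM and log2 values relative to *Rn7sk*, with group means) were not used.

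Of 59699 loci, 53103 name a gene, and 6596 do not and were left out. The loci left out held 4.89% of the counts of KO NPC 3 and 1.32% to 1.72% of those of each other library. Loci that name several genes (1707) were kept as merged loci. The function filterByExpr of edgeR (minimum count 10, minimum total 15) removed low genes. After TMM scaling, KO and WT were compared by the quasi-likelihood test of edgeR with no block, Benjamini-Hochberg adjustment over 19073 genes and a threshold of 0.05. Standard errors were the size of the log2 fold change over the square root of F, and log2 CPM had a prior count of 2. Each test was run first on simulated counts with the same dispersion for all genes. This checked the code and does not show the power of the tests in these libraries. R 4.3.3, edgeR 4.0.16 and DESeq2 1.42.0 were used. Promoters were from RefSeq (GRCm38.p6) and gene bounds from GENCODE (GRCm38).

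The study describes 3 pairs of biological replicates. After removal of each genotype's mean, libraries with the same number correlated across genes at r = 0.413, 0.169 and 0.195. The highest value of another KO and WT pair was 0.0579, so the numbers were taken to pair the libraries. The fold changes, standard errors and intervals of single genes given above are from the fit with no block.

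The 8 genes and the gene lists were chosen with earlier results of these data known. The genes to be named were the 8, the other folate enzymes, *Armc5*, the 3 tested genes of each list with the highest mean CPM and any past the threshold, and the 2 genes most correlated with each of the 8. Genes that overlap a locus are named for annotation, and a few genes that the rule names are not reported here. The alternatives were no filter, total counts, the *Rn7sk* scale, the likelihood ratio test, DESeq2, the replicate number as a block, each library left out in turn, and both libraries numbered 3 left out. KO NPC 3 left out with DESeq2, the likelihood ratio test on the *Rn7sk* scale, blocked or not, and the level of KO NPC 3 beside the other 5 libraries were added after seeing the data.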

Additional observations from a re-analysis of the deposited data

How the results depend on the processing

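None of the 8 genes was called under any alternative, and each had an unadjusted p above 0.05 in all of them. Of 321 alternative values, 289 kept their direction and side of the threshold or moved by less than the spread, 18, all of them log2 fold changes of single genes among the 8, turned direction and 14 moved further. Counting every change of sign, also within the spread, 48 values lay on the other side of 0. Beside those 18 they were 4 medians of the 8 genes, 24 medians of gene lists and 2 log2 ratios between genes. Without KO NPC 3, the log2 fold changes of *Tyms*, *Mthfd1*, *Mthfd2* and *Shmt1* turned to 0.10, 0.029, 0.056 and 0.16. They were 0.10, 0.030, 0.056 and 0.16 by the likelihood ratio test and, added after seeing the data, 0.10, 0.030, 0.057 and 0.16 by DESeq2. With both libraries numbered 3 left out they were 0.18, 0.12, 0.092 and 0.26, and *Mthfd1l* turned to 0.049. *Aldh1l2* turned to 0.032 without WT NPC 3. With 1 library left out in turn, the values lay between -0.81 and 0.10 for *Tyms*, -0.37 and 0.029 for *Mthfd1*, -0.70 and 0.056 for *Mthfd2*, -0.83 and 0.16 for *Shmt1* and -0.18 and 0.032 for *Aldh1l2*. The cause was not tested. Leaving out 1 library moved the median of the 8 genes between -0.65 and 0.012.

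The numbers of all genes called were 0 by the quasi-likelihood test (308 at an unadjusted p under 0.05), 17 by the likelihood ratio test, 35 by DESeq2, 4 on the *Rn7sk* scale, 5 with no filter, 38 with the replicate block and the likelihood ratio test, and 68 without KO NPC 3 by the likelihood ratio test. In settings added after seeing the data they were 90 without KO NPC 3 by DESeq2, 8 by the likelihood ratio test on the *Rn7sk* scale and 22 with the replicate block as well. The cause of these differences was not tested. With the replicate block in the quasi-likelihood test, 0 genes were called, the median of the 8 genes was -0.61, and no other call changed. The blocked log2 fold changes were -0.98 for *Shmt1*, -0.82 for *Mthfd1l*, -0.72 for *Mthfd2* and -0.62 for *Tyms*. They were -0.60 for *Shmt2*, -0.28 for *Mtr*, -0.24 for *Mthfd1* and -0.098 for *Aldh1l2*. All but that of *Aldh1l2* were lower than with no block, and KO NPC 3 was part of the blocked fit. On the *Rn7sk* scale the median of all genes shifted to -0.26 and that of the 8 genes to -0.63. Leaving out 1 library kept the count of all genes called at 0 by the quasi-likelihood test.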
